A study of Homo sapiens with 16 samples.

Results

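A set of 8 genes of the extracellular adenosine pathway, *NT5E*, *ENPP1*, *ADA*, *ADK*, *ADORA2B*, *SLC29A1*, *SLC29A2* and *PNP*, was followed across 16 RNA-sequencing libraries of HCT116 cells. The set was 8 of the 33937 genes in the deposited count table. The set was selected on a measured value, the low *NT5E* level in the libraries labelled KD-wDox, so all values that involve those libraries are given for these genes as a description, with no test. The other 7 genes were added because they act in the same pathway as *NT5E*. The 8 genes passed the filter on low counts in each of the fits used here.

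HCT116 is an established human colorectal carcinoma line. The sequenced cells were stable HCT116 lines carrying a doxycycline (dox)-inducible short hairpin RNA (shRNA), either scrambled (SCR) or directed against *NAA40*, an N-terminal acetyltransferase acting on histones H4 and H2A. Dox, where given, was at 1 μg/ml for 96 h. The 4 groups had 4 libraries each. For the scrambled line they are SCR (-dox), labelled CTRL-wDox, and SCR (+dox), labelled CTRL-Dox. For the other line they are NAA40-KD (-dox), labelled KD-wDox, and NAA40-KD (+dox), labelled KD-Dox. By these labels, both (-dox) groups carried a construct without inducer and both (+dox) groups received dox, but the level of *NAA40*, given below, went against the labels of the NAA40-KD libraries. Each shRNA was represented by a single line name in the labels, so a line and its hairpin cannot be told apart.

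Cells release ATP, and enzymes on their outer surface turn it stepwise into adenosine. CD39-type ectonucleotidases remove phosphates from ATP and ADP, ENPP1 cleaves ATP directly to AMP, and CD73, the product of *NT5E*, removes the last phosphate from AMP. The adenosine formed binds G protein-coupled receptors such as ADORA2B, or enters cells through the equilibrative transporters encoded by *SLC29A1* and *SLC29A2*, where it is phosphorylated by ADK or deaminated by ADA to inosine, which PNP then cleaves. CD73 is known in colorectal tumours as a source of adenosine that dampens T cell responses.

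Total counts per library lay between 11065606 and 13855486. Levels are CPM (counts scaled to a common library size) after TMM normalization, a scaling that corrects for differences in library composition. One library, NAA40-KD (-dox) replicate 4, stood apart from the rest: its median absolute log2 difference from the other libraries of its group was 0.756 over 14392 genes, against 0.0842 to 0.291 in the other 15 libraries. Of 8 epithelial markers, 6 were above 1 CPM in every group and *VIL1* and *CDH17* were below it, and their summed level was 3818 to 5525 CPM outside NAA40-KD (-dox) and 5100 to 10730 CPM within it, highest in replicate 4. Fibroblast and stromal markers summed to 59.8 to 97.2 CPM outside that group and 71.1 to 199 CPM within it, nearly all from *COL1A1*, with *DCN*, *LUM* and *PDGFRA* at or near 0. Leukocyte markers summed to at most 7.64 CPM and endothelial markers to at most 4.70 CPM. Of 9 leukocyte markers, *PTPRC* was at or near 0, while *CD4*, *CD8A* and *ITGAM* had group means of 0.925 to 2.03 CPM. Of 6 endothelial markers, *PECAM1* was at or near 0, while *VWF* and *KDR* had group means of 0.723 to 1.70 CPM. The part of all these marker levels in the results below was not tested.

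*NAA40*, the targeted gene, did not follow the labels. It was measured at 25.9 to 34.7 CPM in SCR (-dox), 26.2 to 28.3 CPM in SCR (+dox) and 28.7 to 31.8 CPM in the libraries labelled NAA40-KD (+dox), but at 9.32 to 13.4 CPM in those labelled NAA40-KD (-dox). Relative to SCR (+dox), *NAA40* in the libraries labelled NAA40-KD (+dox) differed by 0.15 on the log2 scale (SE 0.0956, adjusted p = 0.281), with every library above those of SCR (+dox). Relative to SCR (-dox), it fell by 1.31 in the libraries labelled NAA40-KD (-dox) (SE 0.179, adjusted p = 0.00521). These and all later adjusted p-values are from the quasi-likelihood F test of edgeR after Benjamini-Hochberg correction. Whether the dox labels were exchanged, in the NAA40-KD libraries alone or in both lines, was not tested. Group names below are therefore those of the labels only, and no direction is assigned to dox in either line or to a loss of *NAA40*.

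*NT5E* (ENSG00000135318; GRCh38, GENCODE release 29, chr6:85449584-85495791, plus strand) overlaps no other annotated gene. Its level in SCR (-dox) was 219, 233, 238 and 220.0 CPM in replicates 1 to 4, and in SCR (+dox) it was 265, 252, 231 and 211 CPM. The 2 SCR groups overlapped. The libraries labelled NAA40-KD (+dox) held 126, 132, 132 and 128 CPM, and those labelled NAA40-KD (-dox) held 56.1, 51.1, 59.8 and 39.5 CPM. Every library of the NAA40-KD line thus lay below every SCR library, and the 2 NAA40-KD groups did not overlap each other either. Group means were 240 ± 23.7 CPM in SCR (+dox) and 227 ± 9.48 in SCR (-dox), against 130 ± 2.96 in NAA40-KD (+dox) and 51.6 ± 8.83 in NAA40-KD (-dox) (SD, n = 4), and without replicate 4 the last was 55.7 ± 4.37 (n = 3). Counts ran from 496 to 3352 per library.

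**Figure D1:**
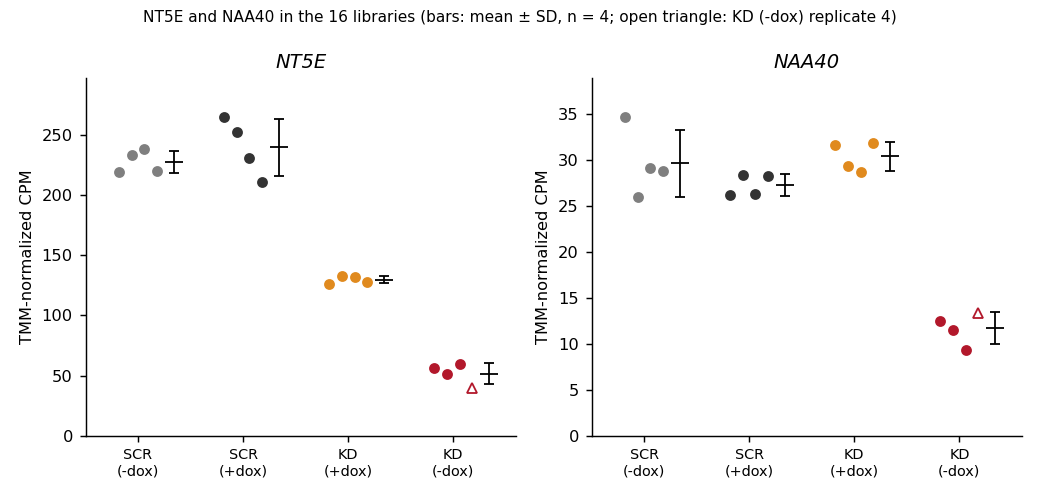
TMM-normalized CPM of *NT5E* (left) and *NAA40* (right) in the 16 libraries by labelled group; points are libraries, the open triangle is NAA40-KD (-dox) replicate 4, and bars are the mean ± SD of 4 libraries. *NT5E* falls to 126 to 132 CPM in NAA40-KD (+dox), where *NAA40* is at 28.7 to 31.8 CPM, and to 39.5 to 59.8 CPM in NAA40-KD (-dox), where *NAA40* is at 9.32 to 13.4 CPM.

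The comparison of NAA40-KD (+dox) with SCR (+dox) holds none of the libraries behind the selection. It does share the 2 lines with the contrast that chose the set. A selection on a low *NT5E* level in the NAA40-KD line is therefore not independent of a lasting difference between the lines. By its labels it is the comparison in which the study asked what NAA40 depletion changes. *NAA40* was not lower in these NAA40-KD libraries, however (log2 fold change 0.15). If the dox labels of the NAA40-KD libraries alone were exchanged, these groups would differ in dox as well as in line. If those of both lines were exchanged, the groups would still share their dox state. *NT5E* fell by 0.89 on the log2 scale (SE 0.0853, adjusted p = 8.88e-07), to 54.0% of its mean level in SCR (+dox). *SLC29A1*, the main equilibrative nucleoside transporter of the plasma membrane, rose by 0.26 (SE 0.0886, adjusted p = 0.0368). The other 6 genes did not pass, with log2 fold changes of 0.25 for *ENPP1*, 0.25 for *ADA*, -0.22 for *ADORA2B*, 0.10 for *SLC29A2*, 0.04 for *ADK* and -0.02 for *PNP*. Their adjusted p-values lay between 0.122 and 0.903. So 2 of the 8 genes passed an adjusted p under 0.05, where 24.5% of the 13869 genes tested did, and 0 of the 8 also exceeded an absolute log2 fold change of 1, where 2.15% did. Groups did not overlap for 2 of the 8 genes, *NT5E* and *SLC29A1*, against 27.1% of all genes. A larger fall than that of *NT5E* was measured for 348 genes, 2.51% of those tested. The median log2 fold change was 0.07 over the 8 genes and 0.00 over all genes tested.

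*NT5E* passed an adjusted p under 0.05 in 16 of 16 alternative settings, with adjusted p-values from 3.2e-21 to 1.93e-04 and fold changes from -0.94 to -0.84. *SLC29A1* passed in 7 of 16, with adjusted p-values from 0.0133 to 0.264, and did not pass on leaving out each of 6 of the 8 libraries. *ENPP1* passed in 1 of 16, without SCR (+dox) replicate 1, where its log2 fold change was 0.36 (adjusted p = 0.0215, against up to 0.583 in the other settings). In bulk RNA, fewer cells with a transcript and less of it per cell cannot be told apart.

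**Figure D2:**
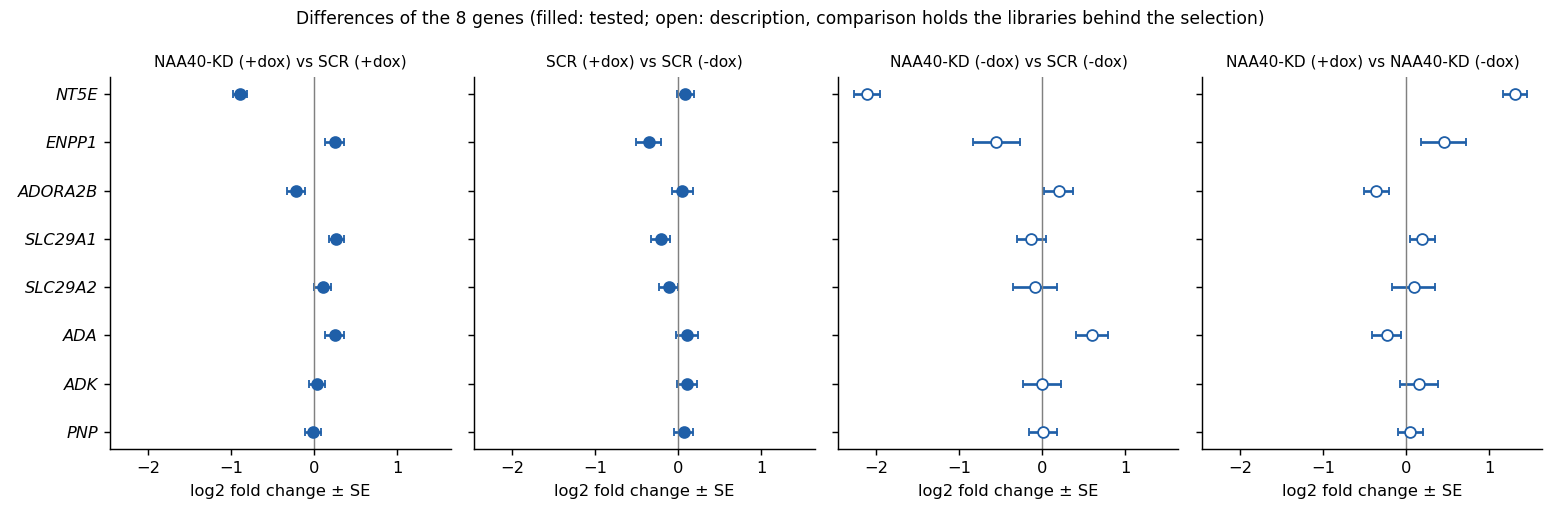
Log2 fold change ± SE of the 8 genes in the 4 comparisons; filled points were tested, and open points are descriptions because the comparison holds the NAA40-KD (-dox) libraries on which the set was selected. The filled points between the SCR groups hold the reference of that selection, SCR (-dox). *NT5E* is at -0.89 between the (+dox) groups and -2.11 between the (-dox) groups, and the other 7 lie within 0.6 of 0 in all 4 comparisons.

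In the scrambled line, the dox label was not accompanied by a detected change in the pathway, which does not show that dox had no effect. Between SCR (+dox) and SCR (-dox), 0 of the 8 genes passed, with adjusted p-values of 1.00 for each. The SCR (-dox) libraries were the reference in the contrast that chose the set, so these tests were not free of the selection. The share over all 13882 genes was 0.0% at an adjusted p under 0.05 and likewise 0.0% with the fold threshold. DESeq2 called 0. An unadjusted p under 0.05 was found for 271 genes, fewer than chance alone would give at that threshold. Groups did not overlap for 0 of the 8 genes and for 1.56% of all genes. *NT5E* differed by 0.09 (SE 0.105), and the largest difference among the 8 was that of *ENPP1*, -0.36 (SE 0.147, unadjusted p = 0.0260), followed by *SLC29A1* at -0.21 (SE 0.112).

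Between NAA40-KD (-dox) and SCR (-dox), the contrast that chose the set, the log2 fold change of *NT5E* was -2.11 (SE 0.156), or 22.7% of the SCR mean. Without NAA40-KD (-dox) replicate 4, it was -2.02. A larger fall was measured for 17 of 13903 genes. Of the 8 genes, *NT5E* alone passed an absolute log2 fold change of 1, and the shares over all genes were 6.42% at an adjusted p under 0.05, 3.47% with the fold threshold and 21.7% without overlap of the groups. The difference of *NT5E* between NAA40-KD (+dox) and NAA40-KD (-dox) was 1.31 (SE 0.142), a level 2.48-fold higher in the first, where the corresponding shares over 13844 genes were 10.2%, 3.99% and 29.7%. *NT5E* was again the gene of the 8 past the fold threshold, and the only one whose groups did not overlap. The *NT5E* difference between the lines was larger in the (-dox) than in the (+dox) libraries by 1.22 on the log2 scale (SE 0.166), in a fit in which 9.22% of 14392 genes passed. These values describe the libraries that chose the gene.

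Per kb of exon, the order of the 8 genes changed with the level of *NT5E*. In SCR (-dox), *NT5E* was the highest at 50.2 ± 2.09 CPM per kb, followed by *ADK* at 24.3 ± 2.78, *SLC29A2* at 17.4 ± 1.65, *SLC29A1* at 15.9 ± 1.82, *PNP* at 13.03 ± 1.06, *ADORA2B* at 11.8 ± 1.68, *ADA* at 8.44 ± 0.965 and *ENPP1* at 2.78 ± 0.503 (SD, n = 4). Neighbours in this order from *SLC29A2* down to *ADORA2B* differed by no more than the sum of their SDs. In NAA40-KD (+dox), *NT5E* at 28.6 ± 0.653 and *ADK* at 26.8 ± 1.06 CPM per kb were close to each other. In NAA40-KD (-dox), *NT5E* at 11.4 ± 1.95 was the seventh of the 8, and *ADK* led at 23.9 ± 7.56. Without replicate 4, *NT5E* was at 12.3 and *ADK* at 27.5 CPM per kb, and *NT5E* then ranked above *PNP* (11.99) and *ADA* (11.2), so its place near the end of the order rested on that library.

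*ENPP1* (chr6:131808016-131895155), the enzyme that makes AMP from extracellular ATP, was measured at 28.4, 21.6, 27.0 and 33.7 CPM in SCR (-dox) and at 26.5, 21.5, 19.6 and 18.5 CPM in SCR (+dox). It was at 26.3, 26.0, 26.7 and 23.6 CPM in NAA40-KD (+dox) and at 19.5, 20.3, 25.8 and 8.76 CPM in NAA40-KD (-dox). The mean of NAA40-KD (-dox) was 18.6 CPM, and 21.9 CPM without replicate 4, its lowest library, against 21.5 CPM in SCR (+dox), and the groups of each comparison overlapped. The log2 fold change between the (-dox) groups was -0.55 (SE 0.283), and -0.33 without replicate 4. Its exons share 94 bases with a processed pseudogene on the other strand.

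*ADORA2B* (chr17:15944917-15975746) encodes the low-affinity adenosine receptor that raises cAMP. Its level was 24.9 to 35.3 CPM in SCR (-dox), 26.3 to 33.0 in SCR (+dox), 24.8 to 30.2 in NAA40-KD (+dox) and 29.8 to 40.1 in NAA40-KD (-dox), and the groups of each comparison overlapped. Among the other receptors, *ADORA1* was at 1.54 to 3.69 CPM over the 16 libraries and the mean of *ADORA2A* was below 1 CPM in each group.

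*SLC29A1* (chr6:44219505-44234151) was measured at 54.9, 57.1, 63.7 and 64.4 CPM in SCR (+dox) and at 73.0, 74.6, 69.8 and 72.8 CPM in NAA40-KD (+dox). Every NAA40-KD (+dox) library was above every SCR (+dox) library. In SCR (-dox) the level was 73.4, 71.0, 58.7 and 77.2 CPM, and 3 of these 4 libraries lay within or above the NAA40-KD (+dox) range. In NAA40-KD (-dox) it was 55.1, 57.6, 58.2 and 78.7 CPM, with replicate 4 above the other 3. The log2 fold change between the (-dox) groups was -0.13 (SE 0.176), and -0.29 without that library.

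*SLC29A2* (chr11:66362521-66372214, minus strand), the second equilibrative transporter, ranged from 40.6 to 53.3 CPM outside NAA40-KD (-dox) and from 27.97 to 66.6 CPM within it, where replicate 4 was the highest. The log2 fold change between the (-dox) groups was -0.09 (SE 0.261), and -0.41 without replicate 4. Its exons share 279 bases with an antisense gene.

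*ADA* (chr20:44619522-44652233, minus strand), which deaminates adenosine, was at 24.2, 27.9, 22.5 and 21.7 CPM in SCR (-dox) and at 32.5, 29, 34.3 and 46.1 CPM in NAA40-KD (-dox). Every library of the second group was above every one of the first. The log2 fold change was 0.60 (SE 0.191), and 0.42 without replicate 4. In SCR (+dox) the level was 22.5, 22.5, 28.6 and 29.1 CPM and in NAA40-KD (+dox) 29.5, 29.9, 34.8 and 28.4 CPM, and these groups overlapped. *NT5E* and *ADA* were the 2 of the 8 genes whose (-dox) groups did not overlap, in opposite directions, where 21.7% of all genes did not overlap.

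*ADK* (chr10:74151185-74709303), the kinase that returns adenosine to AMP inside cells, ranged from 68.8 to 98.8 CPM in the 12 libraries outside NAA40-KD (-dox). Within that group it was at 83.9, 81.8 and 97.3 CPM in replicates 1 to 3 and at 41.5 CPM in replicate 4, the lowest of the 16 libraries. The log2 fold change between the (-dox) groups was 0.00 (SE 0.231), and 0.19 without replicate 4. *PNP* (chr14:20468954-20477094), which cleaves inosine, varied least between groups, with means of 54.0 ± 4.37 CPM in SCR (-dox), 56.0 ± 4.66 in SCR (+dox), 55.5 ± 3.79 in NAA40-KD (+dox) and 52.9 ± 8.25 in NAA40-KD (-dox). Exons of *ADA*, *ADK* and *PNP* overlap those of other annotated genes. Whether reads were counted by strand is not given in the sources used here. Counts of *ADA*, *ADK* and *PNP* may therefore be too high or too low over the shared bases.

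**Figure D3:**
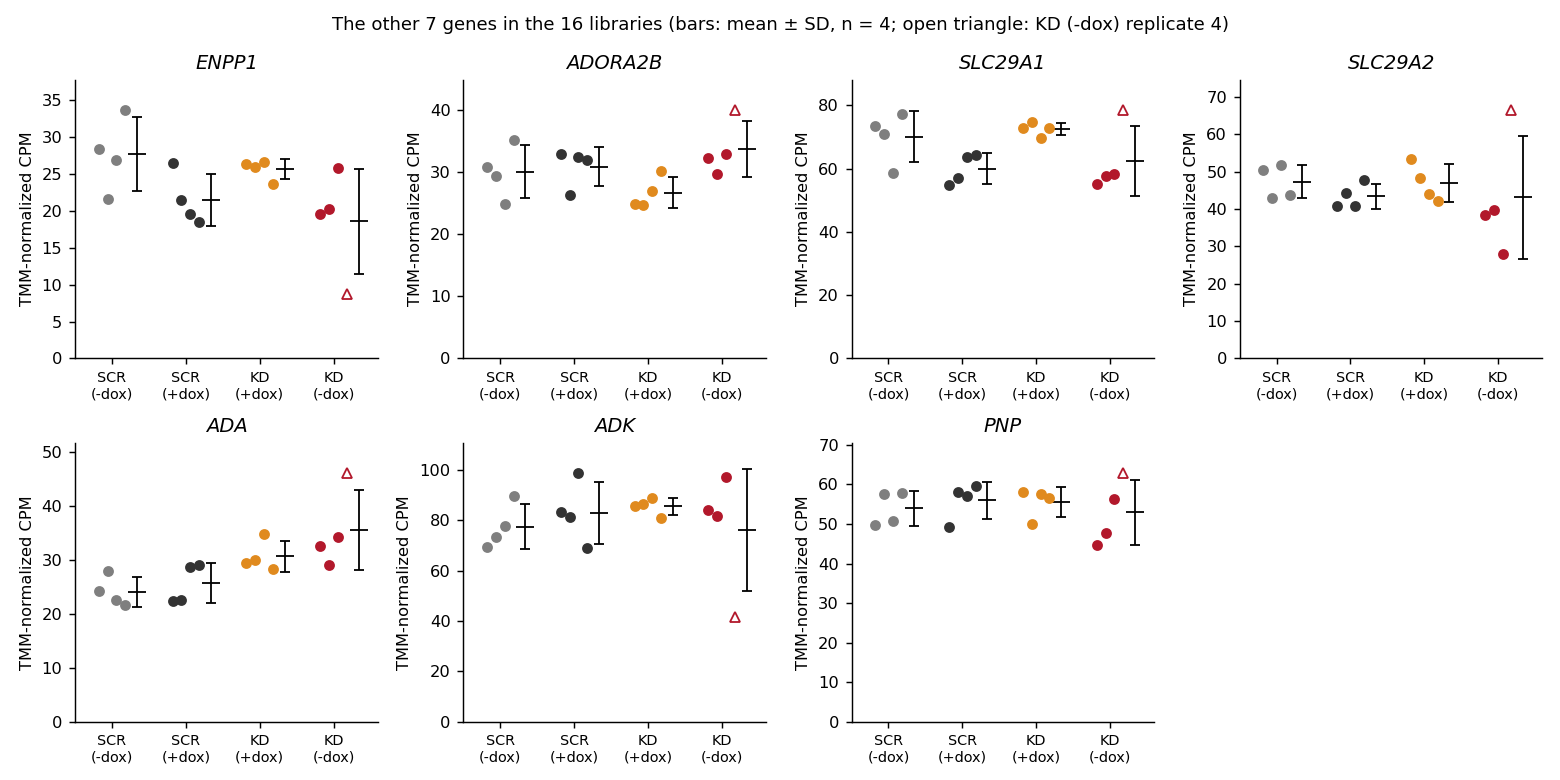
TMM-normalized CPM of the other 7 genes in the 16 libraries by labelled group; points are libraries, the open triangle is NAA40-KD (-dox) replicate 4, and bars are the mean ± SD of 4 libraries. Replicate 4 is the highest or lowest library of its group in all 7 panels, at 8.76 CPM for *ENPP1*, 41.5 CPM for *ADK* and 78.7 CPM for *SLC29A1*.

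The wider pathway was described by 7 lists of genes, holding 80 genes beside the 8. Of these 80, 77 were in the table and 46 passed the filter on low counts in the 4 comparisons. Between NAA40-KD (+dox) and SCR (+dox), 13 of the 46 passed an adjusted p under 0.05, 4 higher and 9 lower, a share of 28.3% against 24.5% over all genes, and 2 also passed the fold threshold, where 2.15% of all genes did. The median log2 fold change was -0.03 over the 46 and 0.00 over all genes.

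Beside the 8 genes, no tested gene of the 4 lists closest to adenosine passed in that comparison, where 24.5% of all genes did. The tested genes of these lists were 3 ectonucleotidases, 1 adenosine receptor, 2 nucleoside transporters and 4 genes of adenosine deamination, phosphorylation and cleavage. *ENTPD2*, the ectonucleotidase of the list with the highest CPM, was at 30.1 ± 1.87 CPM in SCR (+dox) and 35.0 ± 0.640 in NAA40-KD (+dox), a difference of 0.21 on the log2 scale (SE 0.0937, adjusted p = 0.112). *SLC29A4*, a monoamine and adenosine transporter, differed by 0.05 on the log2 scale (SE 0.104), and *MTAP*, which cleaves methylthioadenosine, by -0.01 (SE 0.102). Among genes of purine salvage, cytosolic nucleotidases and AMP deaminases, 4 of 10 passed, 2 in each direction (40%, against 24.5% over all genes). *NT5M*, placed in that list although its nucleotidase is mitochondrial, rose by 0.85 (SE 0.167, adjusted p = 0.00132). *APRT* fell by 0.92 (SE 0.109, adjusted p = 9.10e-06) and *NT5C* by 0.48 (SE 0.125, adjusted p = 0.00973). *NT5C2* rose by 0.45 (SE 0.110, adjusted p = 0.00649). *GDA*, guanine deaminase, did not pass (0.23, SE 0.102, adjusted p = 0.104). Among ATP and ADP receptors and release channels, 2 of 9 passed (22.2%, against 24.5% over all genes). *LRRC8A*, a subunit of volume-regulated anion channels, fell by 0.44 (SE 0.1005, adjusted p = 0.00439), and *P2RY2* rose by 0.51 (SE 0.174, adjusted p = 0.0393).

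Genes of cAMP signalling, the route downstream of ADORA2B, held 7 of the 13 that passed, 1 higher and 6 lower among 17 tested (41.2%, against 24.5% over all genes). *NR4A1* and *NR4A3*, orphan nuclear receptors transcribed early after cAMP and other stimuli, were the 2 past the fold threshold, which 2.15% of all genes passed. *NR4A1* was at 91.1, 198, 167 and 219 CPM in SCR (+dox) and at 91.1, 80.2, 77.9 and 71.3 CPM in NAA40-KD (+dox). SCR (+dox) replicate 1 lay at the level of the highest NAA40-KD (+dox) library, and the other 3 SCR libraries were higher. The fall of *NR4A1* was 1.09 on the log2 scale (SE 0.183, adjusted p = 3.79e-04). Its exons share 754 bases with a non-coding gene on the other strand. *NR4A3* was at 3.41 to 4.59 CPM in SCR (+dox) and 0.963 to 2.06 CPM in NAA40-KD (+dox), and it fell by 1.29 (SE 0.226, adjusted p = 4.94e-04). *ADCY9*, an adenylyl cyclase, fell by 0.84 (SE 0.136, adjusted p = 2.31e-04), while *GNAS*, which encodes the stimulatory G protein subunit, had a log2 fold change of -0.02 (SE 0.0808).

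Between NAA40-KD (-dox) and SCR (-dox), 3 of the 46 genes passed, 6.52% against 6.42% over all genes, and the same 3 passed the fold threshold, where 3.47% did. *FOS*, an immediate early gene, was at 120, 267, 168 and 152 CPM in SCR (-dox) and 27.7, 81.8, 30.7 and 57.8 CPM in NAA40-KD (-dox). Each library of the second group was below each of the first, and *FOS* fell by 1.80 (SE 0.386, adjusted p = 0.0270). *NR4A3* rose by 1.10 (SE 0.192, adjusted p = 0.0122), from 2.94 to 4.14 CPM in SCR (-dox) to 6.21 to 8.46 CPM. *NT5M* rose by 1.14 (SE 0.271, adjusted p = 0.0392) and by 0.83 without replicate 4, which held 16.3 CPM against 8.07 to 9.76 CPM in the other 3. The calls of *FOS* and *NT5M* were each lost on leaving out each of 6 of the 8 libraries, with adjusted p-values of up to 0.0812 and 0.132, and that of *NR4A3* on leaving out SCR (-dox) replicate 2 or 4, with adjusted p-values of up to 0.0525.

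Between NAA40-KD (+dox) and NAA40-KD (-dox), 5 of the 46 passed, all lower in NAA40-KD (+dox), or 10.9% against 10.2% over all genes, and 4 passed the fold threshold, where 3.99% did. *NR4A3* changed by -2.17 on the log2 scale (SE 0.242, adjusted p = 0.00240), *P2RX7*, an ATP-gated channel, by -1.27 (SE 0.196, adjusted p = 0.00630), *AMPD2*, an AMP deaminase, by -1.16 (SE 0.254, adjusted p = 0.0236) and *ADCY9* by -1.11 (SE 0.177, adjusted p = 0.00777). *AMPD2* was at 41.9 to 46.9 CPM in NAA40-KD (+dox) and at 73.5, 80.1, 81.0 and 156 CPM in NAA40-KD (-dox), and its fold change was -0.82 without replicate 4, the highest library. The call of *AMPD2* was lost on leaving out any 1 of the 4 NAA40-KD (+dox) libraries, with adjusted p-values of up to 0.0842. Its exons overlap those of *GNAI3*, *GNAT2* and an antisense gene. Between SCR (+dox) and SCR (-dox), 0 of the 46 passed, 0 had an unadjusted p under 0.05 and DESeq2 called 0.

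**Figure D4:**
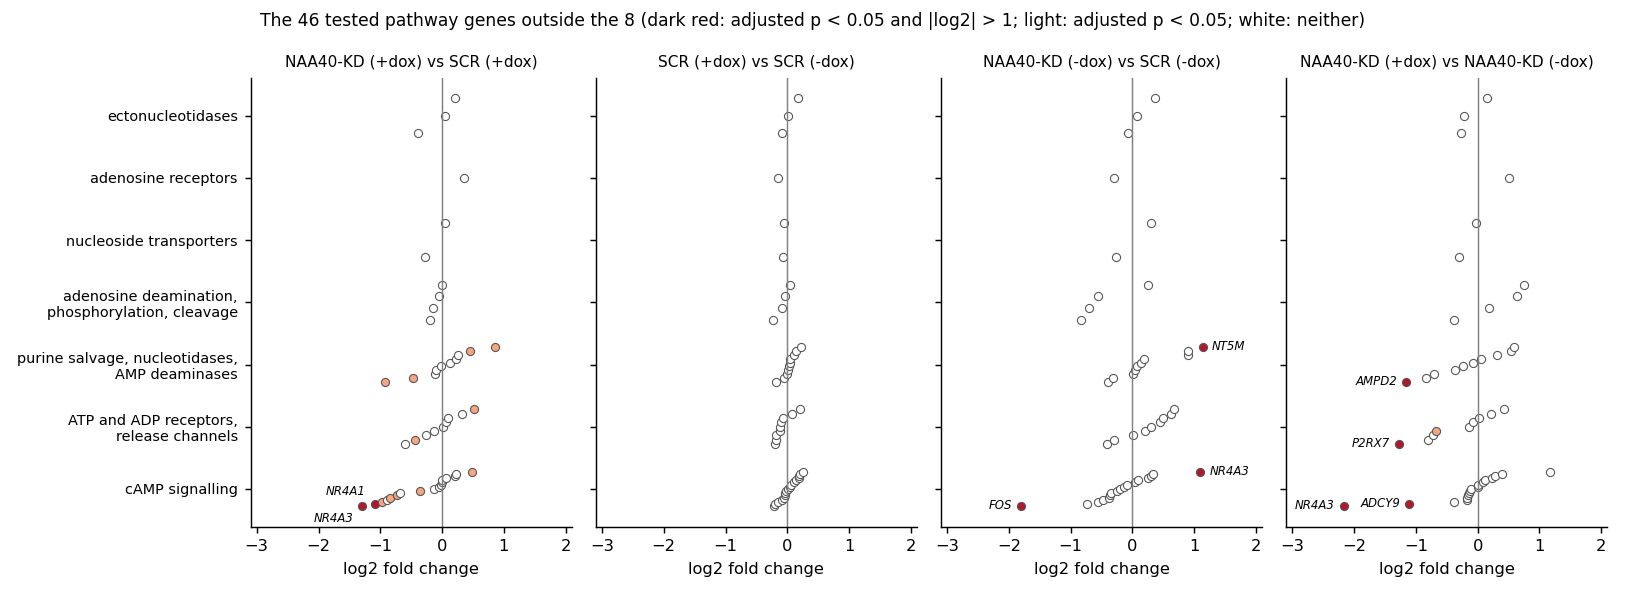
Log2 fold change of the 46 tested pathway genes beside the 8, by list, in the 4 comparisons; each point is a gene, dark red with a name where the adjusted p is under 0.05 and the absolute log2 fold change above 1, light red where only the adjusted p passes. Between the (+dox) groups, 13 points are coloured, 7 of them in the cAMP list, and between the SCR groups none is.

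The 5 genes whose pattern was closest to that of *NT5E* were found by the root-mean-square difference of log2 CPM, centred on each gene's mean, over the 16 libraries and 11127 genes with a mean of at least 5 CPM. They were *MYH15* (0.160), *SMIM13* (0.214), *PSAT1* (0.280), *ITGA2* (0.296) and *LNCAROD* (0.302), where the median over all genes was 0.923. *MYH15*, a myosin heavy chain gene, was at 29.6 ± 4.27 CPM in SCR (-dox), 32.0 ± 1.46 in SCR (+dox), 18.3 ± 2.36 in NAA40-KD (+dox) and 6.20 ± 0.503 in NAA40-KD (-dox). *PSAT1*, an enzyme of serine synthesis, had means of 286, 360, 158 and 95.6 CPM in the same order, and *ITGA2*, a collagen-binding integrin subunit, of 186, 184, 115 and 62.8 CPM. Without NAA40-KD (-dox) replicate 4, *MYH15* (0.162) and *SMIM13* (0.189) were again the closest, and the other 3 gave way to *RAB15*, *SLC7A11* and *CORO2B*. The likeness rests on the libraries that chose *NT5E*, and the points share these libraries.

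**Figure D5:**
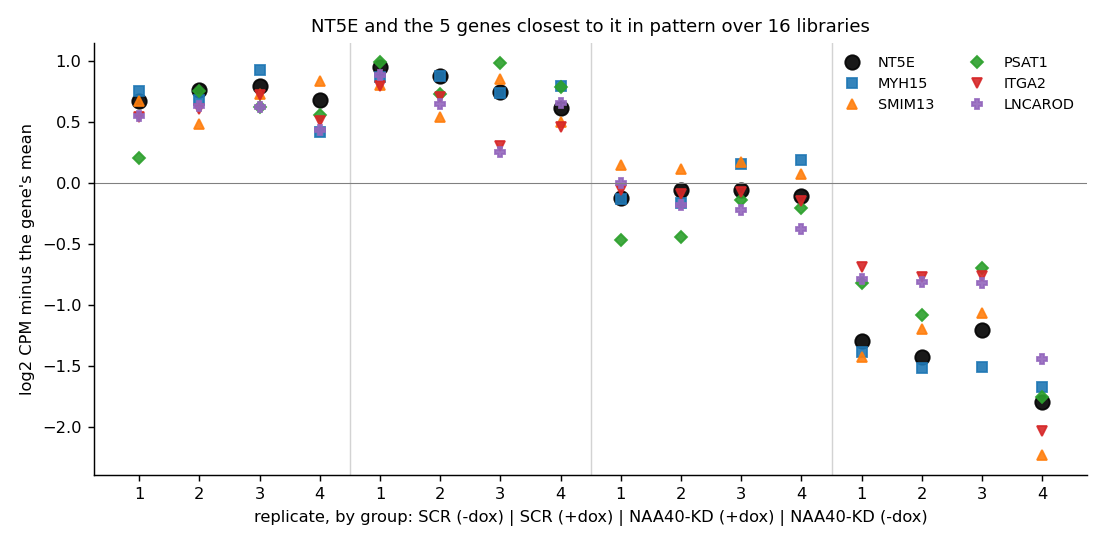
Log2 CPM minus the mean of each gene over the 16 libraries, for *NT5E* (large black circles) and the 5 genes closest to it, by labelled group and replicate number. All 6 genes lie above their mean in the 8 SCR libraries and below -0.6 in the 4 NAA40-KD (-dox) libraries, with the NAA40-KD (+dox) libraries between.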

How the data were processed

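Total RNA of 16 HCT116 cultures in 4 groups of 4 was sequenced. Reads were mapped with STAR by the authors, who used featureCounts for gene-level counting and deposited raw counts of 33937 genes, without normalization. The methods name the mouse build mm10 and the submitters' processing notes hg38 and GRCm38, while 33937 of 33937 identifiers were human. A symbol was found for 33590 identifiers and a GENCODE release 29 entry, which gave GRCh38 coordinates and exon lengths, for 33811. The labels and the methods name different RNA and library kits. All columns were matched to samples, with 0 left over. The methods describe independent RNA samples. Chi-square per degree of freedom between libraries of a group was 1.74 to 140, above sampling noise, so no library was counted as a copy of another.

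From the deposited counts, fold changes and tests came from edgeR 4.0.16 under R 4.3.3 (TMM, robust quasi-likelihood F tests, two-sided, Benjamini-Hochberg adjustment over all genes tested), over genes with CPM above 1 in at least 4 libraries of the fit. Each comparison used its own 8 libraries, and the difference between the line differences used all 16. A call needed both an adjusted p under 0.05 and a change of more than 1 in either direction on the log2 scale. Standard errors (SE) were obtained as the absolute log2 change over the root of the F statistic. Groups were taken from the labels. The code was tested on simulated counts.

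The 8 genes, the 7 pathway lists and the 4 marker lists were chosen with earlier results of these data known, the lists from general knowledge. Beside the 8 genes and *NAA40*, the text names pathway genes called in at least 1 comparison (at most 5 per list), the gene of each list with the highest mean CPM, and the 5 genes most like *NT5E*. *ADORA2A*, *APRT*, *NT5C*, *NT5C2*, *P2RY2* and the genes entering the likeness without a library were named after their values were seen. Alternatives were DESeq2 1.42.0, limma-voom (limma 3.58.1), normalization by library size or upper quartile, leaving out the filter, CPM above 1 in every library, 1 fit to 16 libraries, a block for the replicate number, omission of each library in turn, and other thresholds. Counting error limits genes of a few CPM most, such as *NR4A3*.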

Additional observations from a re-analysis of the deposited data

Results flagged for a closer look

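In 32 groups of 4 values, 8 genes in 4 groups, the highest or lowest library was compared with the spread of its group, and about 1 in 20 such groups would be marked by chance. *ADORA2B* was low in SCR (+dox) replicate 2, at 26.3 CPM against 31.9 to 33.0 CPM in the other 3, a gap of 0.842 of the group's range. *SLC29A1* was high in NAA40-KD (-dox) replicate 4, at 78.7 CPM against 55.1 to 58.2 CPM, a gap of 0.868 of the range.

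For 5 of the 48 pathway genes tested, the difference between NAA40-KD and SCR was not the same under the 2 dox labels by a test of that difference in edgeR, a share of 10.4% against 9.22% over all genes. The (-dox) log2 fold change exceeded the (+dox) one by 2.38 for *NR4A3* (adjusted p = 1.94e-04), by 1.09 for *P2RX7* (adjusted p = 0.0451), by 1.07 for *ADCY9* (adjusted p = 0.00967), by 0.98 for *AMPD2* (adjusted p = 0.0357) and by 0.75 for *P2RX4* (adjusted p = 0.0254), another ATP-gated channel. *NR4A3* and *ADCY9* passed an adjusted p under 0.05 in each of their 22 and 23 alternatives. *AMPD2*, *P2RX7* and *P2RX4* passed in 13, 9 and 16 of 23, with adjusted p-values of up to 0.0770, 0.122 and 0.129. Without NAA40-KD (-dox) replicate 4 the difference of *AMPD2* was 0.65.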

How the results depend on the processing

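Of 512 recomputed fold changes of the 8 genes, 498 kept their direction and their side of the threshold, or, for the values given as a description, moved by less than the spread between replicates. Direction turned in 4, all small differences that did not pass: between the (+dox) groups *ADK* was -0.0374 without SCR (+dox) replicate 4 (range on leaving out libraries -0.0374 to 0.1226), and *PNP* 0.0199 without that library and 0.0288 without NAA40-KD (+dox) replicate 2 (range -0.0755 to 0.0288), and between the SCR groups *ADORA2B* was -0.033 without SCR (-dox) replicate 3 (range -0.033 to 0.1342). *NT5E* lay between -0.94 and -0.84, -2.17 and -2.02, 0.03 and 0.14, and 1.21 and 1.38 on leaving out libraries, in the order (+dox) groups, (-dox) groups, SCR and NAA40-KD.

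Called genes between the (+dox) groups, 298, became 504 with no filter on low counts, 168 with CPM above 1 in every library and 3402 with no fold threshold, and were 251 to 303 on leaving out libraries. Pathway genes called there, 2, became 5, 1 and 13, and 1 (without SCR (+dox) replicate 4) to 4 (without SCR (+dox) replicate 1). Between the (-dox) groups, 483 became 739 with no filter, 772 with a fit over 16 libraries, 892 with no fold threshold and 137 at an adjusted p under 0.01, and 182 (without SCR (-dox) replicate 4) to 587 (without NAA40-KD (-dox) replicate 4) on leaving out libraries, with 182 to 280 without each SCR (-dox) library and NAA40-KD (-dox) replicates 1 and 2. Pathway genes called there, 3, became 0 at the stricter p and 0 (without SCR (-dox) replicate 2 or 4) to 4 (without NAA40-KD (-dox) replicate 4) on leaving out libraries. Between the SCR groups, 0 became 1 with no filter. Between the NAA40-KD groups, 552 became 1414 with no fold threshold and 209 at the stricter p, and 235 to 504 on leaving out libraries, at most 292 without an NAA40-KD (+dox) library, and the 4 pathway genes became 2 (without NAA40-KD (-dox) replicate 4) to 4. The 3 pathway genes past the fold threshold in the test of the difference became 5 without it and 1 (without SCR (+dox) replicate 4) to 4 on leaving out libraries. The settings for that test, for single pathway genes and for the likeness to *NT5E* (2 of 5 genes shared without NAA40-KD (-dox) replicate 4) were chosen after seeing the data. The cause was not tested.

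In none of the 4 comparisons did every pair of same-numbered libraries correlate above 0.1, so the replicate numbers were not taken to pair the samples. Correlations of their deviations ran from -0.04 to 0.19 between the (+dox) groups, -0.42 to 0.14 between the (-dox) groups, -0.28 to 0.02 between the SCR groups and 0.03 to 0.24 between the NAA40-KD groups, where 3 of 4 pairs were above 0.1, and 4, 1, 0 and 5 of 8 libraries correlated best with their own number. With the replicate number as a block, 299, 82, 0 and 452 genes were called, and 1 pathway gene each between the (+dox) and the (-dox) groups. With the block, *NR4A1* between the (+dox) groups had a log2 fold change of -1.03 (adjusted p = 0.0990), and between the (-dox) groups *NR4A3* had one of 1.09 (adjusted p = 0.0770) and *NT5M* one of 1.08 (adjusted p = 0.126), while *NR4A3* still passed between the (+dox) groups at -1.29.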
